A study of Mus musculus with 7 samples.

Results

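Bmp signalling and the Id genes were examined across the ChIP-seq peaks of mouse cerebellar granule cells. The 10 genes were chosen by name for their place in the pathway, with earlier results of these data known. They include the ligands *Bmp4*, *Bmp5* and *Bmp7*, the type I receptors *Bmpr1a* and *Bmpr1b*, and the signal transducer *Smad1*. The others are the inhibitor *Smad7* and the targets *Id1*, *Id2* and *Id3*. The members are 10 of 21938 protein-coding genes in GENCODE M21. A peak was counted at a gene when its centre lay in the gene or within 50 kb of either end, which gave 37 of 31400 peaks for acetylation of lysine 27 on histone H3 (H3K27ac), found at regulatory elements in use. The same windows held 2 of 1946 peaks of the chromatin remodeller Chd7 in wild-type (WT) granule neuron progenitors (GNPs) and 0 of 96 Chd7 peaks in *Chd7*-deficient GNPs. They also held 19 of 17030 peaks of the DNA topoisomerase Top2b in WT cerebellar granule neurons (CGNs) and 21 of 21505 in *Chd7*-deficient CGNs. A peak near a gene is not thereby assigned to it, since 13 of the 37 H3K27ac peaks lay nearest to the start site of another protein-coding gene.

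The cells came from pups at postnatal day 7, of the strain C57BL/6 by the labels and C57BL/6N by the methods. GNPs were isolated fresh on a percoll gradient, and CGNs were GNPs cultured for 48 h without sonic hedgehog (SHH). WT animals carried floxed *Chd7* alleles without Cre (Chd7 f/f), and *Chd7*-deficient animals carried the same alleles with Cre driven by *Atoh1*, a gene of granule cell precursors (Atoh1-Cre::Chd7 f/f). Some Chd7 protein was left in the posterior lobe of these animals, which the study put down to probable incomplete recombination there, so the *Chd7*-deficient preparations may hold some cells with Chd7. Each condition had 1 sample, so no difference between libraries could be set against the spread between animals and no test between conditions was made. The intervals given below cover counting error only.

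Bone morphogenetic proteins (BMPs) are secreted ligands that bring together type I and type II receptors. The type I receptors then phosphorylate Smad1, Smad5 and Smad9, which enter the nucleus with Smad4 and turn on targets, among them the Id genes and the feedback inhibitors *Smad6* and *Smad7*. Id proteins bind basic helix-loop-helix factors and keep them from DNA. In the developing cerebellum BMPs are known to oppose the proliferation of GNPs that SHH drives.

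The sequences below show the single Chd7 peak that lay at the start of a member gene, the strongest H3K27ac peaks away from start sites at an Id gene, a ligand and a receptor, and the promoters of a gene with strong acetylation (*Smad1*) and of a gene with none (*Bmp4*). They are GRCm38 (mm10) sequences on the strand of the gene, 5′ to 3′. The promoters are the parts of the RefSeq GRCm38.p6 entries that lie upstream of annotated transcripts. Capitals mark 4 motifs searched on both strands: GGCGCC, a palindrome known from BMP-responsive elements, CAGAC, the core of the Smad-binding element, and CAGCTG and CAGATG, which basic helix-loop-helix factors bind. The *Bmpr1a* sequence is chr14:34502688-34502987, that upstream of *Id2* is chr12:25098554-25098704, that in *Bmp5* is chr9:75789912-75790062 and that in *Bmpr1b* is chr3:142104035-142104185. The *Smad1* promoter part is chr8:79399519-79399678 and that of *Bmp4* is chr14:46390670-46390919.
Bmpr1a, Chd7 peak in the first intron (minus strand): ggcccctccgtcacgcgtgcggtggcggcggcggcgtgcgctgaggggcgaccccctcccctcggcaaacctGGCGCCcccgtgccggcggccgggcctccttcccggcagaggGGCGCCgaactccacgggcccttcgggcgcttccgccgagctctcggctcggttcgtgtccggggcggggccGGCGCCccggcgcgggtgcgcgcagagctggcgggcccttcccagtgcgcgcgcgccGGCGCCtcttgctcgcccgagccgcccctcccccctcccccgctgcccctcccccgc
Id2, H3K27ac and Top2b peaks upstream (minus strand): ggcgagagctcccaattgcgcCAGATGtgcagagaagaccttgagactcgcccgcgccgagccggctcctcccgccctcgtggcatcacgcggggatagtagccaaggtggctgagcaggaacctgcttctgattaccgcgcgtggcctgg
Bmp5, intronic H3K27ac peak (plus strand): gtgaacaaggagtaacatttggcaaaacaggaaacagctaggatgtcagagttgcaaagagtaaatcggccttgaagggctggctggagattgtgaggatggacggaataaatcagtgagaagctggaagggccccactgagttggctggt
Bmpr1b, intronic H3K27ac peak (minus strand): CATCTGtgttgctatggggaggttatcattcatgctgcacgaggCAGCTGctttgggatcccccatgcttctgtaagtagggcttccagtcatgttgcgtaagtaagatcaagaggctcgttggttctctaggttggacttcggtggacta
Smad1, promoter (minus strand): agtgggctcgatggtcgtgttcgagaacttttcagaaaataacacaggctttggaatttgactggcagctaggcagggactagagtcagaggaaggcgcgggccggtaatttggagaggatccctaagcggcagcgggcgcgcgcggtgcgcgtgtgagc
Bmp4, promoter (minus strand): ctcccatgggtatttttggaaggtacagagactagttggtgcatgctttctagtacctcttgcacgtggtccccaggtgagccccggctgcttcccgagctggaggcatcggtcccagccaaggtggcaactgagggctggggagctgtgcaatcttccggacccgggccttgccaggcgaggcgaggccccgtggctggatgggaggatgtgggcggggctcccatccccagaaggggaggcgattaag

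The *Bmpr1a* sequence holds 4 copies of GGCGCC and 82.0% G and C. It contains the summit, at chr14:34502793, but is not centred on it, so the 82.0% and the median below come from windows placed differently. The 300 bases around the summit also held 4 copies. Across 1902 WT Chd7 peaks, 16.8% had at least 1 GGCGCC in the 300 bases around the summit, their median G and C content was 56.0%, and 0.0526% had at least 4 copies, a share that is this peak alone. The same motif was found in 11.9% of 32851 RefSeq promoters of 300 bases, against 49.6% for CAGAC, 16.3% for CAGCTG and 17.2% for CAGATG. Among 151-base windows at H3K27ac summits, 9.37% held CAGCTG and 11.5% CAGATG, of which the *Bmpr1b* window had both and the *Id2* window the latter. The *Bmp5* window and both promoter parts held none of the 4. These matches describe letters in the windows shown and were looked at after the peaks were known.

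Peak tables give, for each H3K27ac or Chd7 peak, the fragments piled up at its summit and the fold enrichment over the local background. The GNP preparation was checked through H3K27ac at the start sites of marker genes. All 9 GNP markers had a peak within 1 kb of a start site, with fold enrichments from 3.55 to 31.6. Of the markers of other cells, 2 of 5 did for Purkinje cells, 2 of 4 for inhibitory interneuron progenitors, 2 of 5 for astroglia, 2 of 5 for the oligodendrocyte lineage, 1 of 4 for microglia, 1 of 4 for endothelium and 0 of 4 for meninges, none above 7.54. Among all protein-coding genes 46.5% had such a peak, so the counts for markers of other cells say little about how many were present. The part of other cells in the values below was not tested, and in bulk chromatin the share of cells that carry a mark and the signal per cell cannot be told apart.

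Start-site H3K27ac was called at both receptors, both Smads, 2 of the 3 Id genes and 1 of the 3 ligands. H3K27ac peaks lay in the windows of 8 of the 10 genes, against 73.5% of all protein-coding genes, and at a start site of 7 of the 10, against 46.5%. *Bmp4* and *Bmp7* had none in their windows and *Id3* had none at its start site. Over the members the median was 3 peaks per window and over all genes 2, or 1.91 and 1.59 per 100 kb. The median fold enrichment was 4.54 for the 37 peaks, which ranged from 2.54 to 19.0, and 4.35 for all 31400, with median widths of 756 and 646 bp. By position, 18 of the 37 lay within a member gene.

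**Figure D1:**
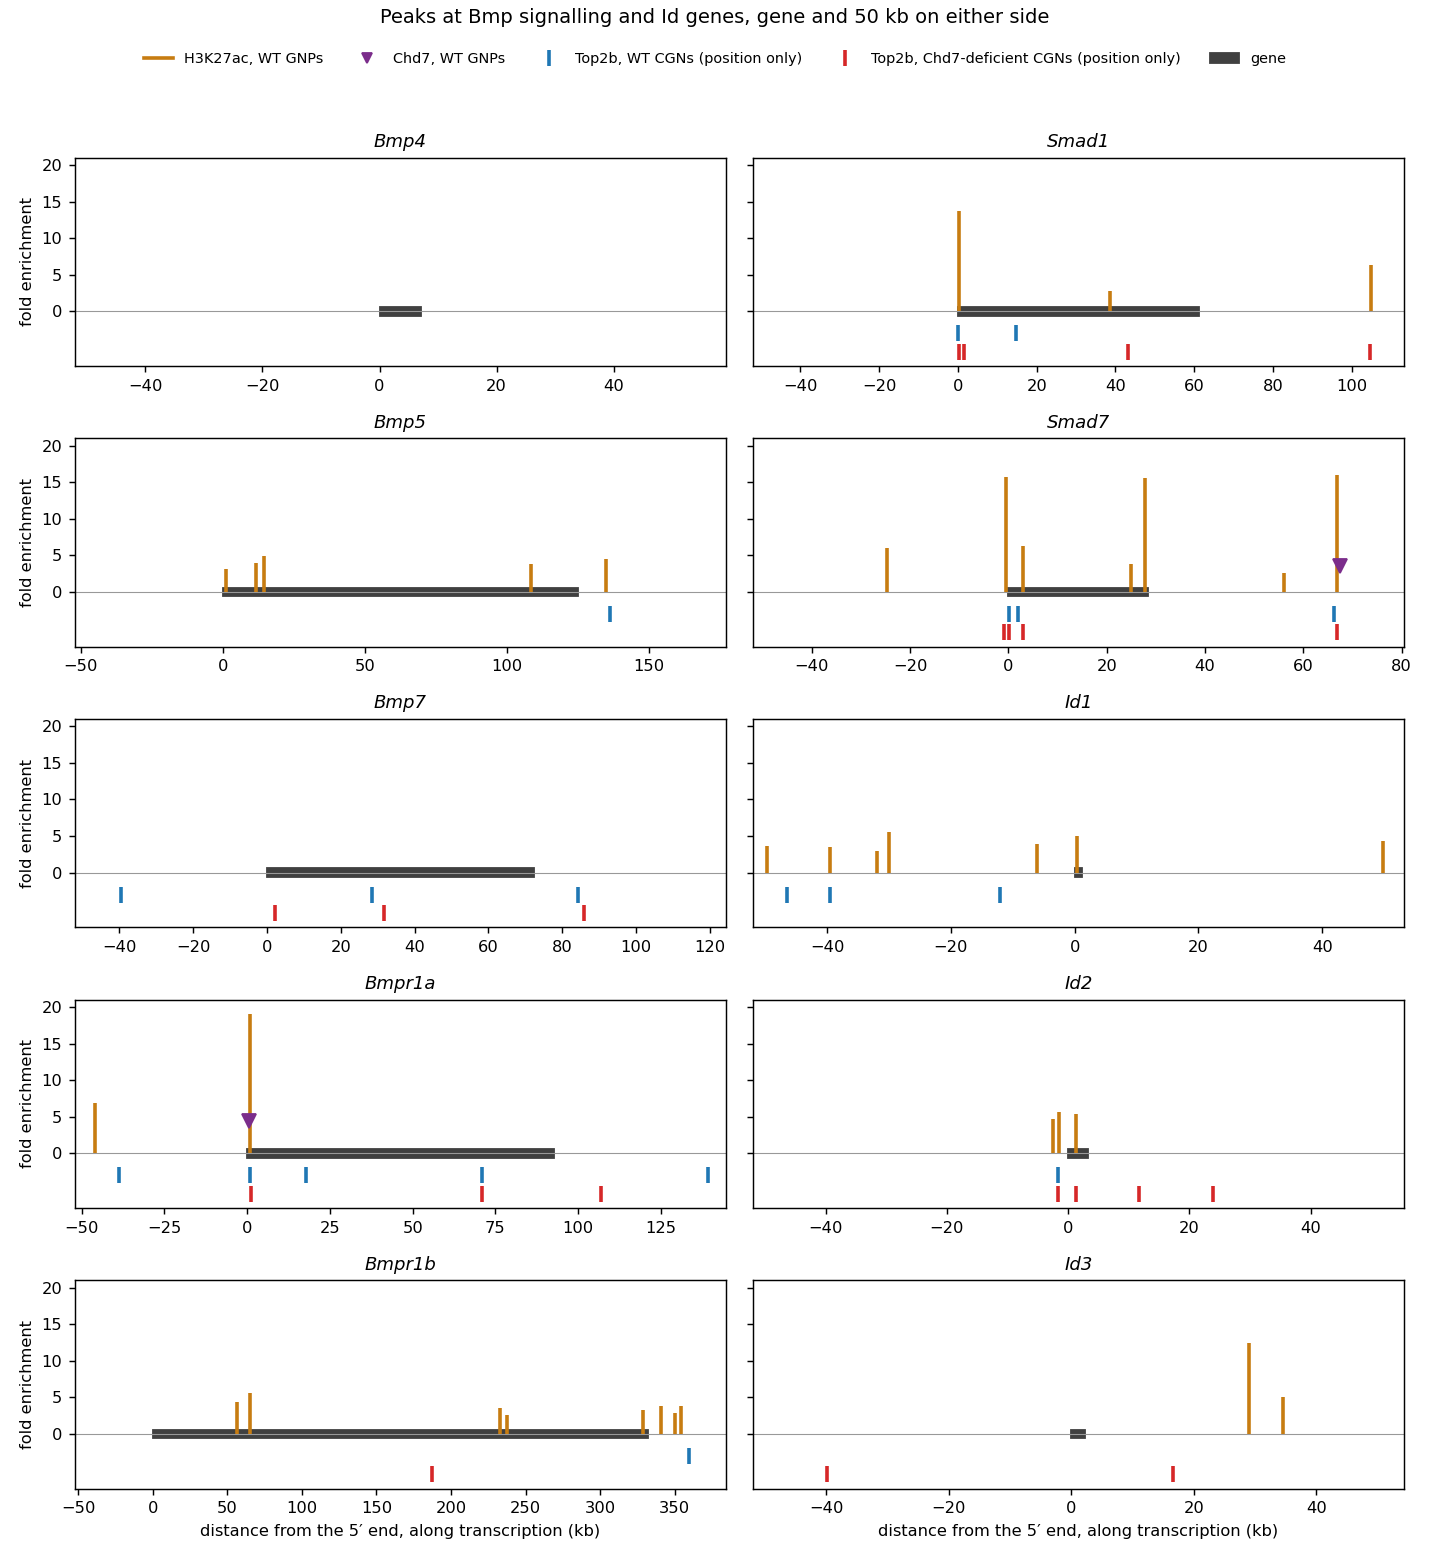
Peaks along the 10 genes and 50 kb on either side, plotted by distance from the 5′ end in the direction of transcription (kb). Orange lines show the fold enrichment of H3K27ac peaks, purple triangles that of Chd7 peaks in WT GNPs, and blue and red ticks below the line show only the positions of Top2b peaks in WT and *Chd7*-deficient CGNs; *Bmp4* has no peak of any library, and the 2 triangles stand at *Bmpr1a* and downstream of *Smad7*.

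Among the ligands, *Bmp4*, a secreted BMP with broad roles in patterning, lies at chr14:46383520-46390669 on the minus strand. No H3K27ac, Chd7 or Top2b peak was found within 50 kb of it. The nearest H3K27ac peak was 370 kb away and the nearest WT Chd7 peak 398 kb away. It was the 1 member with no peak of any library in its window.

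*Bmp7*, a ligand of the same family (chr2:172868012-172940321, minus strand), also had no H3K27ac peak in its window, the nearest being 60.3 kb away, and no Chd7 peak within 317 kb. Unlike *Bmp4*, it had 3 Top2b peaks in WT CGNs and 3 in *Chd7*-deficient CGNs. None of the WT peaks overlapped one of the *Chd7*-deficient peaks, while 16.8% of all WT peaks did. The nearest to its 5′ end was a *Chd7*-deficient peak 2.25 kb into the gene.

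*Bmp5* (chr9:75775364-75900310, plus strand) was the ligand with acetylation. It had 5 H3K27ac peaks, of which 4 lay inside the gene, and all 5 were nearest to its own start site. The strongest was intronic, at chr9:75789482-75790483, 14.6 kb into the gene, with 36 fragments at the summit and a fold enrichment of 4.98. The peak closest to the start, in a coding exon with its summit 1.02 kb into the gene, had 26 fragments and a fold enrichment of 3.18. No Chd7 peak was found within 1755 kb of *Bmp5*. The study named *Bmp5* among genes activated by Chd7 that had weaker open-chromatin peaks after Chd7 loss, a readout not examined here.

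Of the receptors, *Bmpr1a* (chr14:34410734-34503341, minus strand) had the highest H3K27ac fold enrichment among the 10 genes. Its start-site peak at chr14:34501562-34503555 had 119 fragments at the summit (95% Poisson interval 98.6 to 142) and a fold enrichment of 19.02. The only other H3K27ac peak in its window lay 45.9 kb upstream in an intron of *Ldb3*, a gene of muscle Z-discs, with a fold enrichment of 6.82. The start of *Bmpr1a* was therefore a single strong peak with little around it.

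A Chd7 peak lay on the same element in WT GNPs, at chr14:34502564-34503348. Its summit was in the first intron, 0.548 kb from the 5′ end of the gene, within the GGCGCC-rich sequence shown above. It had 18 fragments (95% Poisson interval 10.7 to 28.4), was enriched 4.45-fold and had a −log10 q-value of 4.45. Of all WT Chd7 peaks, 67.1% had a lower fold enrichment, while 953 had a higher −log10 q-value, so that it was above the median of 4.07 in enrichment and of middle rank in q. No peak was called there in *Chd7*-deficient GNPs. Its −log10 p-value of 8.65 was above the 5.76 of the weakest peak called in that library. Since the read totals of the libraries are not given, this cannot say whether equal binding would have been called there.

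*Bmpr1b*, the second type I receptor (chr3:141837136-142169425, minus strand), had the most H3K27ac peaks of the 10 genes, 8, over the longest window, 432 kb. All were modest. The strongest was intronic, at chr3:142103766-142104893, with 52 fragments and a fold enrichment of 5.55, and the weakest, 2.64, lay at an internal start site 238 kb into the gene. No H3K27ac peak was called at the 5′ end of the gene itself. Of the 8 peaks, 3 lay past the 3′ end in introns of *Unc5c*, which encodes a netrin receptor, and 4 had *Bmpr1b* as the nearest start site. The nearest Chd7 peak was 236 kb away. The 2 receptors thus differed in kind: *Bmpr1a* had 1 strong peak with Chd7 at its 5′ end and *Bmpr1b* had several weak peaks away from it.

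*Smad1*, which carries the signal from the receptors to the nucleus (chr8:79338395-79399518, minus strand), had 3 H3K27ac peaks. The start-site peak at chr8:79397917-79399679 had 107 fragments (95% Poisson interval 87.7 to 129) and a fold enrichment of 13.66. An intronic peak 38.7 kb into the gene had a fold enrichment of 2.83, and a peak of 6.38 lay at the start site of *Mmaa*, a gene of cobalamin metabolism, beyond the 3′ end. No Chd7 peak was found within 240 kb, although the start of *Smad1* was among the stronger acetylated start sites.

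*Smad7*, which blocks the type I receptors and is itself a target of the pathway (chr18:75367529-75395935, plus strand), had 3 strong peaks. Its 7 H3K27ac peaks were all nearest to its own start site. The peak at the start, chr18:75366362-75369496, had 116 fragments (95% Poisson interval 95.9 to 139) and a fold enrichment of 15.74. Another, over the 3′ untranslated region at chr18:75393825-75395718, reached 15.62, which is about the level of the start-site peak. The remaining one, at chr18:75433573-75435901 in the 3′ untranslated region of *Ctif*, a gene of the translation of new mRNAs, reached 15.99 with 162 fragments.

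The last of these 3 peaks carried the other Chd7 peak, chr18:75434851-75435378. It lay 67.5 kb from the 5′ end of *Smad7*, 39.2 kb past its 3′ end and within *Ctif*. It had 22 fragments (95% Poisson interval 13.8 to 33.3), was enriched 3.56-fold and had a −log10 q-value of 3.70, with 24.0% of WT Chd7 peaks lower in enrichment and 1197 higher in −log10 q. Its counting interval overlapped that of the Chd7 peak at *Bmpr1a*. Its −log10 p-value of 7.73 was likewise above the lowest called in *Chd7*-deficient GNPs, where no peak was found, and the same limit applies. The 300 bases around its summit held 1 CAGAC, 1 CAGCTG and 1 CAGATG, and no GGCGCC.

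The Id genes were acetylated at lower levels than the Smads, and none had a Chd7 peak. *Id1* (chr2:152736251-152737410, plus strand) had 7 H3K27ac peaks in its window, of which 2 were nearest to its start site. The start-site peak, chr2:152736399-152737435, covered most of the gene and had 36 fragments (95% Poisson interval 25.2 to 49.8) and a fold enrichment of 4.98. A peak of 3.87 lay 6.08 kb upstream. The strongest in the window, 5.52, lay at the 3′ end of *H13*, a signal peptide peptidase. The nearest WT Chd7 peak was 1832 kb away.

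*Id2* (chr12:25093799-25097140, minus strand) had 3 H3K27ac peaks, all nearest to its own start site and all within 2.52 kb of its 5′ end. Over the gene, the peak at chr12:25094357-25096173 had 50 fragments (95% Poisson interval 37.1 to 65.9) and a fold enrichment of 5.34. The upstream peak at chr12:25098464-25098820, shown above, had 53 fragments and a fold enrichment of 5.65. The third, 2.52 kb upstream, reached 4.67. Gene and upstream region were therefore marked at about the same level.

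*Id3* (chr4:136143497-136145755, plus strand) had no H3K27ac peak at its start site. The nearest lay 26.9 kb away at the start site of *E2f2*, a cell cycle transcription factor, with a fold enrichment of 12.47, and an intron of *E2f2* had a peak of 5.07. Neither had *Id3* as its nearest start site. The 3 Id genes, all short genes of the same family, thus fell into 2 with peaks of their own and 1 without.

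Ranked by enrichment at the start site, the members ran from *Bmpr1a* at 19.02 through *Smad7* at 15.74, *Smad1* at 13.66, *Id2* at 5.34, *Id1* at 4.98 and *Bmp5* at 3.18 to *Bmpr1b* at 2.64. The median over the 10211 protein-coding genes with a start-site peak was 8.48. *Bmpr1a* stood above 89.6% of these genes, *Smad7* above 82.5% and *Smad1* above 76.2%. *Id2* stood above 23.4%, *Id1* above 20.1%, *Bmp5* above 3.62% and *Bmpr1b* above 0.568%. None lay between the values of *Id2* and *Smad1*, where the middle of the distribution falls.

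**Figure D2:**
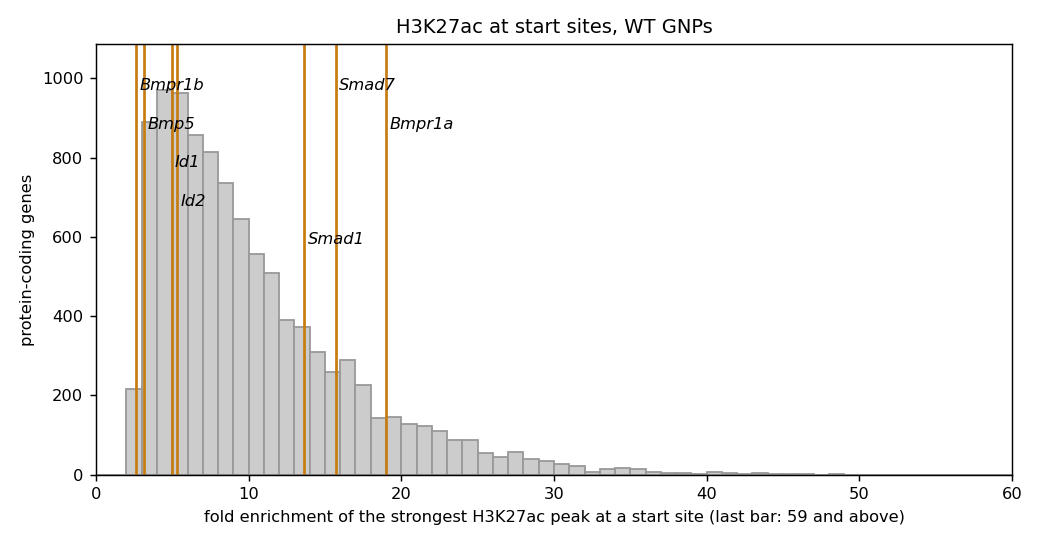
Grey bars count protein-coding genes by the fold enrichment of their strongest H3K27ac peak at a start site in WT GNPs, and orange lines mark the 7 member genes that have such a peak. *Bmpr1a*, *Smad7* and *Smad1* lie above the median of 8.48, and *Id2*, *Id1*, *Bmp5* and *Bmpr1b* lie below it.

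By fragments at the summit, the intervals of *Bmpr1a*, *Smad7* and *Smad1* overlapped one another. Those of *Smad1* and *Id2* did not, which was the 1 gap between neighbours in this order. *Id2* and *Id1* overlapped, as did *Id1*, *Bmpr1b* with 27 fragments (17.8 to 39.3) and *Bmp5* with 26 (17.0 to 38.1). The upper and the lower group were separated by more than counting error. Within each group the intervals overlapped, which does not show that the counts were equal.

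**Figure D3:**
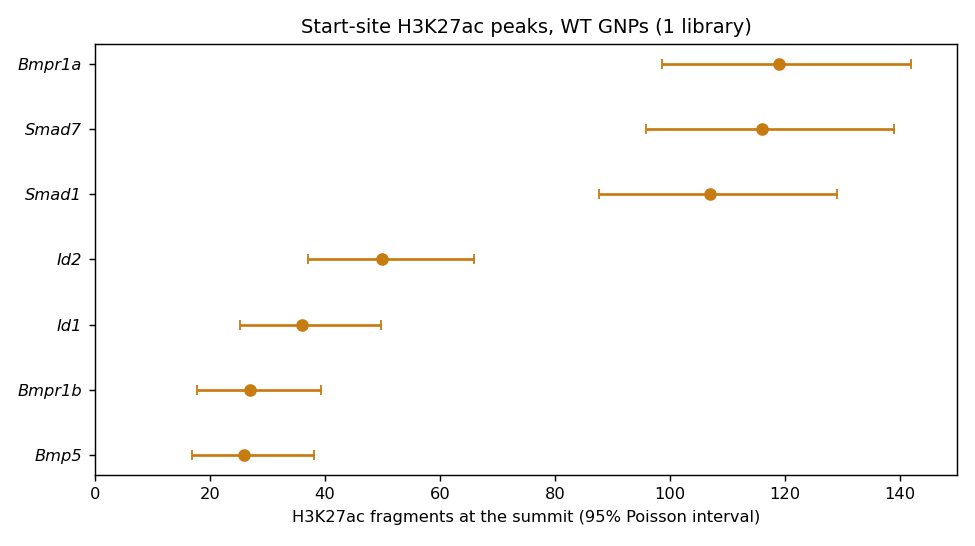
H3K27ac fragments at the summit of the start-site peak of each member gene that has one, with 95% Poisson intervals, from 1 library of WT GNPs. The points fall into an upper group from 107 to 119 fragments and a lower group from 26 to 50.

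The base composition of the start sites was looked at after these levels were known. In the 1000 bp around the 5′ end, the ratio of observed to expected CpG was 0.92 for *Bmpr1a*, 0.96 for *Smad1* and 0.85 for *Smad7*, against medians of 0.75 for genes with a start-site peak and 0.26 for genes without. *Id1* had 0.60, *Id2* 0.50, *Id3* 0.67, *Bmp4* 0.44 and *Bmp5* 0.26. *Bmp7* had 0.82 and no peak, although 86.6% of the 4456 genes with a ratio of at least 0.8 had one. *Bmpr1b* had 0.83, and its weak peak lay at an internal start site. Of the 5 members at or above 0.8, 4 had a peak at some start site, all but *Bmp7*. That of *Bmpr1b* was not at the 5′ end, where the ratio was measured.

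Chd7 was found at 2 of the 10 genes, *Bmpr1a* and *Smad7*, against 14.3% of all protein-coding genes with a WT Chd7 peak within 50 kb. No member had a peak in *Chd7*-deficient GNPs, against 0.205% of all genes, and neither of the 2 WT peaks overlapped a *Chd7*-deficient one, against 3.19% of all WT peaks. The median distance from a member to the nearest WT Chd7 peak was 266 kb, and 411 kb over all genes. Both Chd7 peaks overlapped an H3K27ac peak, as did 77.9% of all WT Chd7 peaks. Seen from the acetylated side, 2 of the 37 H3K27ac peaks overlapped Chd7, or 5.41% (95% Wilson interval 1.5 to 17.7), against 4.98% of all H3K27ac peaks. At start sites it was 1 of 7, *Bmpr1a*, against 8.67%. The count at the 10 genes was thus near the background of the library.

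Both Chd7 peaks lay on strongly acetylated elements. In a range of fold enrichment from 13 to under 20, chosen after the values were seen, there were 5 member peaks: the start sites of *Bmpr1a*, *Smad1* and *Smad7*, the 3′ end of *Smad7* and the element in *Ctif*. Of these, 2 overlapped a Chd7 peak, against 17.5% of the 1964 peaks of that range. The 3 others were similar in acetylation and had no Chd7 peak that was detectable at this depth. Just below the range, the peak of 12.47 at the start site of *E2f2*, in the window of *Id3*, had no Chd7 peak either.

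No member overlapped a super-enhancer-like region, against 4.18% of protein-coding genes. Such regions were approximated by joining H3K27ac peaks over the distance that HOMER uses by default and ranking the 17539 joined regions by signal, which placed 612 of them above the bend of the curve. The highest rank at a member was 1102, at *Smad7*, followed by 2418 at *Bmpr1a*, 3187 at *Smad1* and 4144 at *Id2*. A super-enhancer-like region at *Bcl2l1*, a gene of cell survival, lay within 50 kb of *Id1* and did not reach it.

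Top2b, which relieves the torsion of DNA and binds active regulatory elements in neurons, was mapped in CGNs. The deposited peaks have positions without a score, all 396 bp wide in WT and 400 bp in *Chd7*-deficient CGNs, so that only presence could be compared. In WT CGNs, 8 of the 10 genes had a Top2b peak within 50 kb, against 62.2% of all genes, and in *Chd7*-deficient CGNs 7, against 71.0%. Over the whole library there were fewer peaks in WT than in *Chd7*-deficient CGNs, and members went both ways. *Bmp5*, *Bmpr1a* and *Id1* had more peaks in WT, *Smad1*, *Smad7*, *Id2* and *Id3* had fewer, and *Bmp4*, *Bmp7* and *Bmpr1b* had as many in each. The shares of all genes going each way were not counted, so these directions are not read as a trait of the members.

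Top2b counts at the Id genes are given without the share of all genes whose counts differ, which was not computed. *Id1* had 3 Top2b peaks in WT and 0 in *Chd7*-deficient CGNs, *Id2* had 1 and 4, and *Id3* had 0 and 2. With 1 library each, these counts have no replicate check and are not read as an effect of genotype at the Id genes. None of the 3 WT peaks at *Id1* was nearer than 12 kb to the gene. The nearest *Chd7*-deficient peak was 55.3 kb away, just outside the window of 50 kb, so the contrast at *Id1* depends on the window.

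At start sites, WT CGNs had Top2b at *Bmpr1a*, *Smad1* and *Smad7*, 3 of the 10 genes against 13.4% of all genes. These are the 3 members with the strongest H3K27ac start-site peaks in GNPs. *Chd7*-deficient CGNs had Top2b at these 3 and at *Bmpr1b* and *Id2*, 5 of 10 against 24.5%.

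At the start of *Bmpr1a* the Top2b peaks of the 2 genotypes did not overlap. Over all WT peaks, at start sites or not, 16.8% were overlapped by a *Chd7*-deficient one. The share among start-site peaks alone was not counted. Whether loss of Chd7 moved the peak was not tested. The WT peak, chr14:34502436-34502831, overlapped the Chd7 peak of WT GNPs and its summit. The *Chd7*-deficient peak, chr14:34501912-34502311, lay downstream in the gene and overlapped neither the WT Top2b peak nor the Chd7 peak, although both lay under the same H3K27ac peak. The WT peak was the only Top2b peak at a member that overlapped a Chd7 peak. At the element in *Ctif*, the WT peak chr18:75433606-75434001 and the *Chd7*-deficient peak chr18:75434231-75434630 also lay under 1 H3K27ac peak without overlapping each other, and neither overlapped the Chd7 peak there.

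At *Smad1* the WT peak chr8:79399207-79399602 and the *Chd7*-deficient peak chr8:79399131-79399530 did overlap. The same held at the start of *Smad7*, for chr18:75367514-75367909 and chr18:75367375-75367774, at the upstream element of *Id2*, for chr12:25098685-25099080 and chr12:25098557-25098956, and in an intron of *Bmpr1a*, for chr14:34432201-34432596 and chr14:34432173-34432572. *Smad7* had a further WT start-site peak at chr18:75369194-75369589 and further *Chd7*-deficient ones at chr18:75366488-75366887 and chr18:75370367-75370766. The remaining start-site peaks, all in *Chd7*-deficient CGNs, were chr8:79356125-79356524 at an internal start of *Smad1*, chr3:141981828-141982227 at an internal start of *Bmpr1b* and chr12:25095575-25095974 in *Id2*. In all, 4 of 19 WT peaks at the members were overlapped by a *Chd7*-deficient peak, against 16.8% of all WT peaks, and 4 of 21 the other way, against 13.3%. Top2b peaks overlapping a GNP H3K27ac peak numbered 7 of 19 in WT, against 17.4%, and 10 of 21 in *Chd7*-deficient CGNs, against 26.6%.

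A wider list of 45 further genes of the pathway gave the setting. Of these, 30 had an H3K27ac peak within 50 kb, against 73.5% of all genes, and 19 had one at a start site, against 46.5%. A WT Chd7 peak lay within 50 kb of 8, against 14.3%, while 0 had a Chd7 peak in *Chd7*-deficient GNPs. By role, start-site H3K27ac was called at 0 of 9 ligands, 7 of 8 receptors and co-receptors, 8 of 11 Smads and regulators, 3 of 12 antagonists and 1 of 5 targets. With the 10 members included, 1 of 12 ligands, 9 of 10 receptors, 10 of 13 Smads and regulators and 3 of 8 targets had such a peak.

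**Figure D4:**
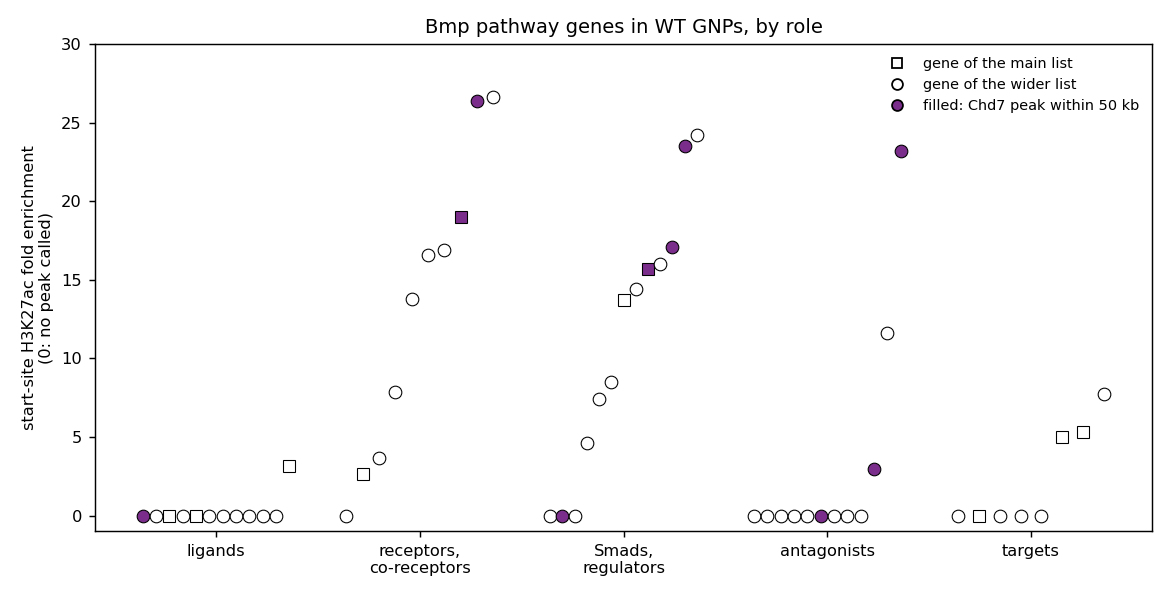
Start-site H3K27ac fold enrichment in WT GNPs for the 55 pathway genes, grouped by role, with 0 where no peak was called. Squares are the 10 members, circles the 45 further genes, and filled symbols have a WT Chd7 peak within 50 kb; ligands and antagonists lie mostly at 0, receptors and Smads mostly above it.

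The 8 genes with Chd7 came from several roles. *Neo1*, which encodes the receptor neogenin, had 2 Chd7 peaks, the stronger enriched 5.22-fold at a −log10 q-value of 7.90, beside a start-site H3K27ac peak of 26.4. *Smad6*, the other inhibitory Smad, had a Chd7 peak of 4.65 in a coding exon, and *Bmp2*, a ligand, had one of 3.70 in an untranslated region. Neither *Smad6* nor *Bmp2* had any H3K27ac peak within 50 kb, a combination found in 2.38% of the 5807 genes without H3K27ac. *Smad7*, the inhibitory Smad among the members, differed from both in having strong acetylation at its start. The Chd7 peak counted for it lay on an acetylated element in *Ctif*, 39.2 kb past its 3′ end.

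*Chrd*, which encodes the BMP antagonist chordin, had 2 Chd7 peaks, the stronger of 4.13, and a start-site H3K27ac peak of 23.2. *Tob1*, which encodes an antiproliferative protein that binds Smads, had a Chd7 peak of 3.46 in its untranslated region and start-site H3K27ac of 23.5. For 3 genes the peak lay in a neighbour: that for *Nbl1*, a BMP antagonist, was in *Htr6* with a fold enrichment of 4.17, that for *Fstl1*, a follistatin-like protein, was in *Lrrc58* with 3.98, and that for *Smurf2*, a ubiquitin ligase of Smads and receptors, was in *Ddx5* with 2.79.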

How the data were processed

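ChIP-seq was made by the authors from GNPs (H3K27ac, Chd7) and CGNs (Top2b), 1 sample per condition. Per the submitters' processing notes and the methods, reads were trimmed with Trim Galore and mapped to mm10 with Bowtie 1.0.0, keeping unique alignments. Peaks came from MACS2 at default settings and, for Top2b, from HOMER. The control library used is not given in the sources used here. The input libraries were not analysed here, and the tables give no read total per library.

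The pileup deposited by the authors is a coverage signal, the fragments at a summit. H3K27ac pileups are multiples of 0.941 and were divided by it, which gave whole fragments in 100% of peaks within 0.05 of a step. The deposited −log10 p-value, fold enrichment and −log10 q-value had lost their decimal points, which dividing by 100000 restored. The −log10 p-values, recomputed for 31348 of the 31400 H3K27ac peaks and for every Chd7 peak, differed by at most 0.00261. The lowest −log10 q-values were 1.31 for H3K27ac, 1.34 for WT Chd7 and 1.33 for *Chd7*-deficient GNPs.

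Genes came from GENCODE M21. A start-site peak lay within 1 kb of the start of any transcript, and overlap was at least 1 bp. The text names all members, each Chd7 peak, the strongest start-site and other H3K27ac peak of each gene, Top2b peaks at start sites or Chd7 peaks, and further pathway genes with Chd7. The members and lists were chosen with earlier results of these data known. RefSeq promoters (250 bases before to 50 after the start) were found for 7 of the 10 members, 9 entries in all, each identical to the genome. Counting was tested on simulated data, where the planted peaks of 200 of 200 genes were counted exactly. Alternatives changed the window, threshold, overlap, start-site definition and joining of regions. Scripts ran in Python 3.11.15 with pandas 2.3.3, numpy 2.4.6, pysam 0.24.0, scipy 1.17.1 and, for the plots, matplotlib 3.10.9.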

Additional observations from a re-analysis of the deposited data

How the results depend on the processing

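With windows of 10 kb, 100 kb, the gene alone, and 5 kb upstream to 1 kb downstream, the members had 23, 59, 18 and 20 H3K27ac peaks in place of 37, and 18 remained at a −log10 q-value of at least 10. Chd7 peaks of WT GNPs, and genes with one, fell from 2 to 1 with the 10 kb window, the gene alone and the 5 kb window, where the peak at *Bmpr1a* remained, and to 0 at a −log10 q-value of at least 5 or 10. Further pathway genes with Chd7 numbered 4 with the gene alone, 5 with the 5 kb window, 2 at a −log10 q-value of at least 5 and 0 at 10, in place of 8. The share of H3K27ac peaks with Chd7 went from 5.41% to 0% when 50% of the H3K27ac peak had to overlap. Width fixed this outcome, since the Chd7 peaks are 785 and 528 bp wide and their H3K27ac peaks 1994 and 2329 bp. With 50% of the Chd7 peak required instead, 100% of the Chd7 peaks at members still overlapped H3K27ac. The share of H3K27ac peaks with Chd7 also went to 0% with Chd7 peaks of −log10 q of 5 or more. Among H3K27ac peaks of −log10 q of 10 or more it was 11.1%, within the interval of the main value. Members at super-enhancer-like regions went from 0 to 1, *Id1*, when 50 kb on either side was counted. WT Top2b peaks numbered 9, 29, 8 and 9 in the windows above in place of 19, and *Chd7*-deficient ones 11 with the gene alone and 13 with the 5 kb window in place of 21. The windows and thresholds change these counts by construction. Start-site H3K27ac was called at 6 members within 250 bp, at 6 for the 5′ end alone and at 5 at a −log10 q-value of at least 10, in place of 7. In all, 30 of 58 alternatives left a count within 1.5 times its main value or a share within its interval. The stronger part of the Top2b peaks was not run, since the files give no score. No paired analysis was possible because each condition had 1 sample. The Chd7 peaks rest on 18 and 22 fragments, and weaker binding was not detectable at this depth.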
